A study of Mus musculus with 3 samples.

Results

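Rab GTPases are small GTP-binding proteins that sit on the membranes of the secretory and endocytic pathways. Each Rab cycles between a GTP-bound form, which recruits tethers, motors and other effectors to a membrane, and a GDP-bound form, which is drawn off the membrane by GDI. Exchange factors (GEFs) switch Rabs on, GTPase-activating proteins (GAPs) switch them off, and different Rabs mark different compartments. In an epithelium such as that of the cornea they direct the delivery and recycling of receptors, integrins and junction proteins.

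The Rab genes described here are those whose name in the deposited gene table is Rab followed by digits and at most a letter or a letter with a digit. They numbered 51 of the 16697 genes in that table and carried 100 of the 31850 merged regions bound by SRF, the serum response factor. RefSeq holds 59 protein-coding mouse genes named by the same pattern; 51 of them matched a member by gene ID, and the other 8 were not analysed here. The names Rab1 and Rab7l1 are kept as deposited; RefSeq lists these genes as Rab1a and Rab29.

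SRF is a transcription factor that binds the CArG box, works with the actin-regulated MRTF cofactors and the growth-signal-regulated TCF cofactors of the ETS family, and is best known for genes of the actin cytoskeleton. SRF-bound DNA was immunoprecipitated from whole cornea of Dstn-corn1 mutant mice, whose destrin, a protein that takes actin filaments apart, is not functional, and from whole cornea of wildtype mice. All mice were about 8 weeks old, of mixed background and untreated. Each genotype had 1 library, and an input library made without antibody was not used here. How many animals went into a library is not stated in the labels. Their growth protocol names mutant mice for all 3 libraries, against the title of the wildtype library.

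Because each genotype was represented by 1 library, differences are described without p-values and lack a replicate check. Binding was read as the peak height of a region, its maximum signal as deposited, with unknown read depth. Ratios are log2 of mutant over wildtype height with a pseudocount of 1, so that low regions show smaller differences than they have. In whole cornea, a different share of cell types and a different binding per cell cannot be told apart. Dstn, the mutated gene, was looked at first: at its start mutant had a peak height of 0 and wildtype one of 35. Of the corneal epithelial genes Krt12, Krt5, Krt14 and Pax6, all but Pax6 had an interval in mutant and all 4 had one in wildtype; these show where SRF was bound and do not measure expression. Over all genes the median log2 ratio of the highest region was -1.08, so the highest region of most genes was lower in the mutant library, and values for Rab genes are read against that median.

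SRF was bound at or near a Rab gene for every compartment of the pathway. An interval called by the authors was assigned to 41 of the 51 Rab genes in mutant (80.4%) and to all 51 in wildtype; of all genes in the table, 73.8% had one in mutant and 99% in wildtype. The 10 Rab genes without a mutant interval in the gene table were Rab3d, Rab5b, Rab6b, Rab7, Rab8b, Rab11a, Rab11b, Rab15, Rab30 and Rab39. They include the gene for Rab7, which brings late endosomes to lysosomes, and both Rab11 genes, whose products run the slow recycling endosome. A missing call did not mean an absent signal. In mutant the highest region had 13 at Rab7 without a call, and 13 at Rab22a and 11 at Rab10 with one. For Rab39 the merged region assigned to it was called in both libraries, which makes 42 genes by the region table.

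Heights at the highest region of each Rab gene ran between 8 and 65 in mutant and between 13 and 173 in wildtype. The median was 18 in mutant and 42 in wildtype, beside 18 in mutant and 40 in wildtype over all genes. At the highest region 30 of 51 Rab genes were at least 2-fold lower in mutant (58.8%), against 57.7% of all genes. A 2-fold higher height in mutant was found at 0 Rab genes, against 0.198%. Of the 51 ratios 2 were above 0 (3.92%), against 3.23% of all genes. At the region nearest to each start 24 of 51 were 2-fold lower (47.1%, against 49.9%). Over all 100 Rab regions 51 were 2-fold lower (51%, against 55.8% of all regions with a gene) and 0 were 2-fold higher (against 0.437%). The median log2 ratio of the Rab genes was -1.11 (order-statistic 95% interval over genes -1.28 to -0.87). With all 51 genes, the share of 2-fold lower Rab genes and their median were thus close to those of the whole table. With mean heights at or above 20.5, the median of all regions, 26 of 34 Rab genes were 2-fold lower (76.5%, beside 62.6%). Their median log2 ratio was then -1.21, beside -1.13 over all such genes, and the difference was not tested. The scaling between the deposited libraries is not known. With mutant heights multiplied by 2.1, which equalizes the medians of regions called in both libraries, 2 Rab genes were 2-fold lower and 3 were 2-fold higher in mutant, or 3.92% and 5.88%, beside 5.83% and 4.2% of all genes.

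**Figure D1:**
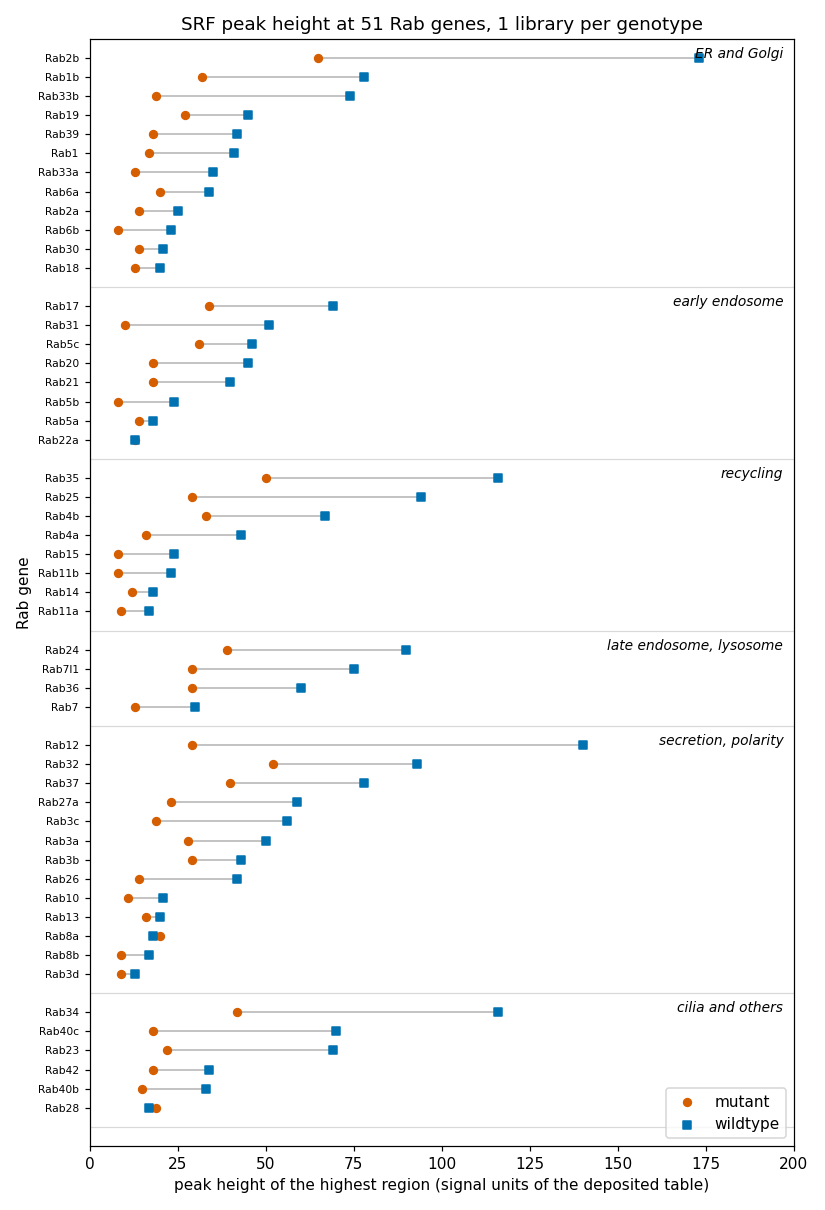
Peak height (signal units, horizontal axis) of the highest region of each of the 51 Rab genes, in the mutant library (circles) and in the wildtype library (squares), grouped by compartment and ordered by wildtype height. Rab2b is the highest in both, at 65 in mutant and 173 in wildtype, and only Rab8a and Rab28 lie higher in mutant.

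The promoters under the 4 highest start regions are shown because these regions carry the highest SRF signal of the Rab starts. These 4 promoters held no CArG box, also with up to 1 mismatch. The promoter of Rab11a is shown as the only matched Rab promoter with an exact CArG box, the motif SRF is known to bind. Each is the 250 bases before the RefSeq start (GRCm38.p6, the same assembly as mm10), written 5′ to 3′ on the strand of the gene: Rab2b at chr14:52279396-52279645 (minus strand), Rab12 at chr17:66519671-66519920 (minus), Rab32 at chr10:10558208-10558457 (minus), Rab7l1 at chr1:131867027-131867276 (plus) and Rab11a at chr9:64737757-64738006 (minus). Capitals mark a CArG box (CC, 6 bases of A or T, then GG, the same pattern on both strands) or the ETS core letters CCGGAA or GGAAGT on either strand, which overlap where a site reads CCGGAAGT.
Rab2b: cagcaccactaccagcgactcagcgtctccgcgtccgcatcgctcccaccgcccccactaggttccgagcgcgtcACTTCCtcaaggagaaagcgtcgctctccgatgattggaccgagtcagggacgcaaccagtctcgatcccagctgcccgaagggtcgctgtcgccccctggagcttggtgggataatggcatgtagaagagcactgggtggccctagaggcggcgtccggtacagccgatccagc
Rab12: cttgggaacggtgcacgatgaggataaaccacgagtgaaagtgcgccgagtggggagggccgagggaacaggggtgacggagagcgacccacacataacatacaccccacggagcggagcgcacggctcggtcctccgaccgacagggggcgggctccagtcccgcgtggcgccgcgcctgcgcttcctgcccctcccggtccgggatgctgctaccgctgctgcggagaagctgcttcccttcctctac
Rab32: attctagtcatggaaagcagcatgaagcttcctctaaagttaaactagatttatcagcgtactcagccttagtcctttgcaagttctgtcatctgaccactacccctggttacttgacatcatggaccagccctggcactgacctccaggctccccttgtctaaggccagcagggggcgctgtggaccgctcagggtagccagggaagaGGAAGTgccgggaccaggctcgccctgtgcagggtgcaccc
Rab7l1: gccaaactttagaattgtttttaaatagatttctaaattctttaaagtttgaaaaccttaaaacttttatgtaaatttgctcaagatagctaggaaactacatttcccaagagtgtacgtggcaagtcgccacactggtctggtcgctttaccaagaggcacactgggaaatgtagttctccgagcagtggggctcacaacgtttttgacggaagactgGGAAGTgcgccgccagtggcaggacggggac
Rab11a: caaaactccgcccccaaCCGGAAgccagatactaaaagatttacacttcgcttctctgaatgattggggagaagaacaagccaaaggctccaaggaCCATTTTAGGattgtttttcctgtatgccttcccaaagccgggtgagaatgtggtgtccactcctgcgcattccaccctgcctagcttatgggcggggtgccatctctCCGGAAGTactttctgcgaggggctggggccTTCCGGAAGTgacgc

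The summits of these start regions lay close to the start. At Rab2b the summit stood at -61 bp in both libraries and at Rab12 at -74 bp in both. At Rab32 it stood at -33 bp in mutant and -65 bp in wildtype, and the centre of the GGAAGT letters was 6 bp from the mutant summit and 26 bp from the wildtype summit. Rab32 also held CCGGAA 33 bp past its start, beyond the stretch shown. At Rab7l1 the GGAAGT letters were centred 31 bp from the mutant summit and 17 bp from the wildtype summit, and at Rab2b 112 bp from both. The window of Rab12, with the second highest wildtype signal of the Rab starts, held none of the motifs searched.

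The 12 Rab genes of the endoplasmic reticulum and Golgi had a median log2 ratio of -1.20, and 7 of them were 2-fold lower in mutant (58.3%, beside 57.7% of all genes). Rab2b, a GTPase of transport between the endoplasmic reticulum and the Golgi, had the highest region of all Rab genes, reaching 65 in mutant and 173 in wildtype. This region (mm10 chr14:52278953-52279928) covers the Rab2b start, its centre is 45 bp upstream, and it is also assigned to Tox4. It ranked 198th of all regions in mutant and 185th in wildtype, so its place among regions was nearly the same in both libraries although its log2 ratio was -1.40. A second Rab2b region (chr14:52257536-52258451), 21402 bp past the start and beyond the gene's end, had 42 in mutant and 130 in wildtype.

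Rab1 and Rab1b encode the GTPases that tether vesicles arriving at the Golgi. The single Rab1 region, centred 405 bp upstream of the start, had 17 in mutant and 41 in wildtype. Rab1b had 4 regions with unlike ratios. The highest (chr19:5094085-5094944), 12482 bp past the start and also assigned to Tmem151a, Yif1a and Cnih2, had 32 in mutant and 78 in wildtype. The region over the Rab1b start (chr19:5106659-5107347) had 17 in mutant and 10 in wildtype, was called in mutant only, and had the highest ratio of all 100 Rab regions, at 0.71.

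Rab33b, a Golgi GTPase that also takes part in autophagosome formation, likewise had 2 unlike regions. The region 130 bp past its start (chr3:51483694-51484499) had 19 in mutant and 74 in wildtype, which gave -1.91 on the log2 scale. The region centred 2725 bp upstream (chr3:51480926-51481556) had 22 in mutant and 26 in wildtype, which gave -0.23. Both are also assigned to Naa15. The start region was thus the higher one in wildtype and the lower one in mutant. Rab19 had 27 in mutant and 45 in wildtype, at a region 19126 bp past its start that Mkrn1 shares. The Rab6 genes, whose products act in transport from endosomes back to the Golgi, had 20 in mutant and 34 in wildtype at the start of Rab6a and 8 in mutant and 23 in wildtype inside Rab6b. The other genes of this group lay in the same range or below it. Rab39 had 18 in mutant and 42 in wildtype, Rab33a 13 in mutant and 35 in wildtype, and Rab2a, the relative of Rab2b, 14 in mutant and 25 in wildtype. Rab30 and Rab18 had their region at the start, called at Rab30 in wildtype only, with 14 in mutant and 21 in wildtype at Rab30 and 13 in mutant and 20 in wildtype at Rab18.

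Among early endosome genes the median log2 ratio was -1.05 over 8 genes, with 5 of them 2-fold lower in mutant (62.5%, beside 57.7% of all genes). Rab17, an epithelial GTPase of endosomes, had the highest region of this group, with 34 in mutant and 69 in wildtype at 4268 bp upstream of its start. Rab5a, Rab5b and Rab5c encode the GTPases that drive fusion of early endosomes, and their regions differed in place and ratio. The Rab5a start had 14 in mutant and 18 in wildtype, Rab5b had 8 in mutant and 24 in wildtype at a region 21490 bp past its start, and Rab5c had 31 in mutant and 46 in wildtype at a region 23372 bp past its start. Both Rab5b and Rab5c shared those regions with genes whose starts were nearer. Rab31, a relative of Rab5, had the lowest ratio of the highest regions, at -2.24: the region 66317 bp inside the gene (chr17:65706119-65706751) had 10 in mutant and 51 in wildtype. Its other region, 9999 bp upstream, had 12 in mutant and 11 in wildtype. Rab20, linked to phagosomes, had 18 in mutant and 45 in wildtype, and Rab21, linked to integrin traffic, 18 in mutant and 40 in wildtype, at regions 7761 and 7922 bp upstream of their starts. Rab22a, with 13 in both libraries, was the only Rab gene with equal heights.

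Recycling genes had a median log2 ratio of -1.28 over 8 genes, and 6 of them were 2-fold lower in mutant (75%, beside 57.7% of all genes, whose median was -1.08). Rab35, a GTPase of fast endocytic recycling that is also linked to actin, had 50 in mutant and 116 in wildtype at a region 21071 bp past its start and beyond the gene's end (chr5:115652626-115653491), which is also assigned to Ccdc64. Rab25, the Rab11 relative found in epithelia, had 29 in mutant and 94 in wildtype, or -1.66 on the log2 scale. That region (chr3:88552585-88554145) lies 5086 bp upstream of Rab25 and is also assigned to Lamtor2 and Ubqln4, of which at least 1 starts nearer. By average signal the Rab25 ratio was -0.75, beside a median of -0.79 over all genes. Rab4b, for rapid recycling, had 33 in mutant and 67 in wildtype at a region 18839 bp past its start, and its start region had 35 in mutant and 51 in wildtype. Its relative Rab4a had 16 in mutant and 43 in wildtype, 26971 bp inside the gene. Rab11a and Rab11b were among the lowest, with 9 in mutant and 17 in wildtype, and with 8 in mutant and 23 in wildtype. Rab15 had 8 in mutant and 24 in wildtype, and Rab14, of traffic between the Golgi and endosomes, 12 in mutant and 18 in wildtype at its start.

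All 4 late endosome and lysosome genes were 2-fold lower in mutant, with log2 ratios between -1.34 and -1.02. Rab24, linked to autophagy, had 39 in mutant and 90 in wildtype at a region 5923 bp upstream that is nearer to another start. Rab7l1, which acts with the kinase LRRK2 at the trans-Golgi and lysosomes, had 29 in mutant and 75 in wildtype over its own start (chr1:131866973-131867741), with no other gene assigned. Rab36 had 29 in mutant and 60 in wildtype at a region 22507 bp past its start, nearer to the start of Bcr. Rab7 had 13 in mutant and 30 in wildtype at a region 15682 bp past its start, just beyond the gene. The group held only these 4 genes, and 57.7% of the whole table were also at least 2-fold lower.

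Of the genes of secretion and cell polarity 4 of 13 were 2-fold lower in mutant (30.8%, beside 57.7% of all genes), a difference that was not tested, with a median log2 ratio of -0.85 (-1.51 to -0.49). Rab12, a GTPase of receptor degradation and another LRRK2 partner, was counted in this group and had its lowest ratio. Its start region (chr17:66518867-66520354) had 29 in mutant and 140 in wildtype, or -2.23 on the log2 scale, and ranked 3055th of all regions in mutant but 325th in wildtype. Rab32, a GTPase of melanosomes and other lysosome-related organelles, had 52 in mutant and 93 in wildtype over its start (chr10:10557795-10558645), or -0.83 on the log2 scale. It ranked 420th in mutant and 926th in wildtype, the opposite shift in rank from Rab12. Rab37, of regulated exocytosis, had 40 in mutant and 78 in wildtype at a region 69204 bp inside the gene, nearer to the start of Slc9a3r1. Rab27a, which docks melanosomes and exosome precursors, had 23 in mutant and 59 in wildtype at 547 bp upstream and 26 in mutant and 48 in wildtype at a region 47087 bp inside the gene. Rab8a, a GTPase of delivery to the cell surface and the cilium, had 20 in mutant and 18 in wildtype at its start, and Rab13, of tight junctions, had 16 in mutant and 20 in wildtype. Rab10, a relative of Rab8 in basolateral delivery, had 11 in mutant and 21 in wildtype, and Rab8b 9 in mutant and 17 in wildtype. The Rab3 genes, of regulated exocytosis, had their highest region away from the start, apart from Rab3d. Rab3c had 19 in mutant and 56 in wildtype 217270 bp inside the gene, Rab3a 28 in mutant and 50 in wildtype, Rab3b 29 in mutant and 43 in wildtype, and Rab3d 9 in mutant and 13 in wildtype. Rab26, of secretory granules, had 14 in mutant and 42 in wildtype. Rab26 and Rab3c were thus 2-fold lower in mutant, along with Rab12 and Rab27a, and the other 9 genes were not.

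The last group held 6 genes of ciliary and other functions, with a median log2 ratio of -1.27 and 4 genes 2-fold lower in mutant (66.7%, beside 57.7% of all genes). Rab34, a GTPase needed for cilium assembly, had 42 in mutant and 116 in wildtype at a region 10430 bp upstream (chr11:78177388-78178607) that is also assigned to Rpl23a, small nucleolar RNA genes and others with nearer starts. The Rab34 log2 ratio was -1.44 by peak height and -0.71 by average signal, beside medians of -1.08 and -0.79 over all genes. Rab23, a negative regulator of Hedgehog signalling, had 22 in mutant and 69 in wildtype at a region 19682 bp past its start, nearer to the start of Bag2. Rab40c, an adaptor of a ubiquitin ligase, had 18 in mutant and 70 in wildtype inside the gene (chr17:25893769-25894386), or -1.90 on the log2 scale. Over the Rab40c start (chr17:25919515-25920730) the heights were 22 in mutant and 19 in wildtype. Rab28 had the highest ratio of the highest regions, 0.15, with 19 in mutant and 17 in wildtype over its start. With the average signal in place of the peak its ratio was -0.15, and that of Rab8a, the other gene higher in mutant by peak height, was -0.23. Rab42 had 18 in mutant and 34 in wildtype, and Rab40b 15 in mutant and 33 in wildtype. Of these 6 genes Rab34 alone had more than 70 in wildtype.

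**Figure D2:**
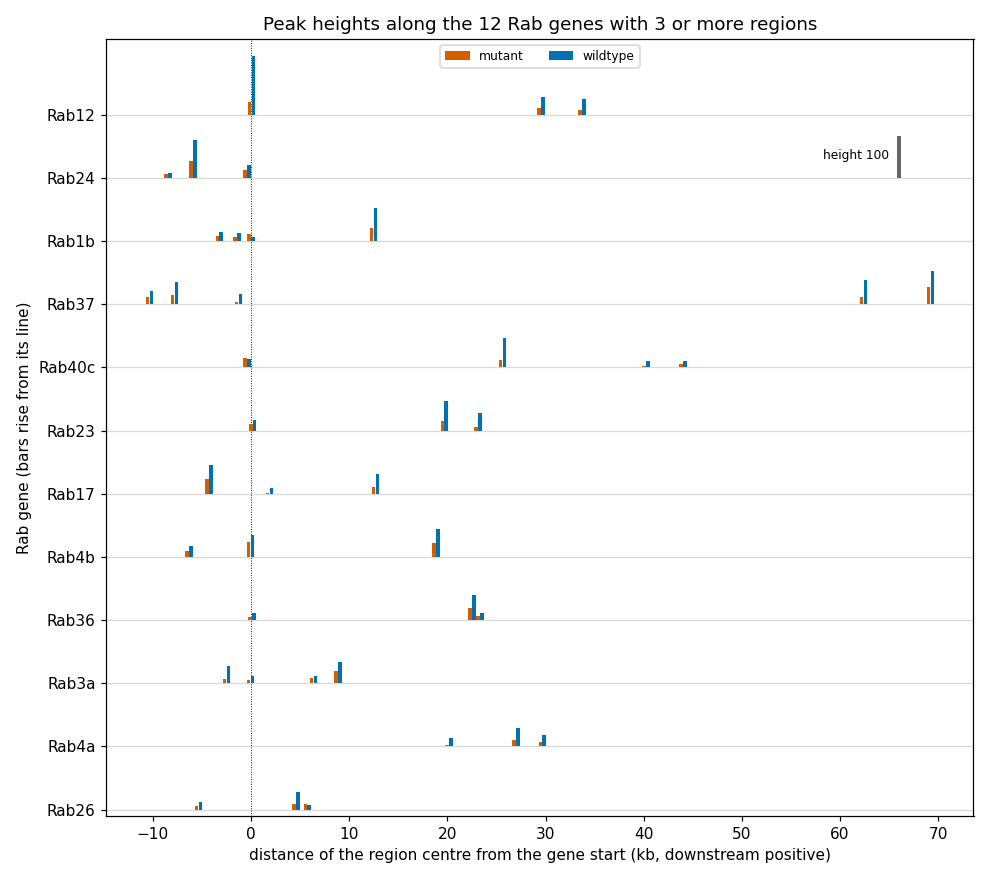
Peak heights (bars, mutant left of wildtype) at each region of the 12 Rab genes with 3 or more regions, placed by the distance of the region centre from the gene start in kb; the grey bar shows a height of 100. In wildtype Rab12 is highest at its start, whereas Rab1b, Rab40c and Rab23 are highest 12482 to 25637 bp past their starts and lower at the start itself.

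Rab genes had a median of 2 regions each, as did all genes, with 19 Rab genes having 1 region, 20 having 2, and Rab37 having 5. Of the 100 regions, 35 were assigned to a Rab gene alone (35%, beside 65.9% of all regions with a gene assigned to 1 gene), and in 60 the Rab start was the nearest start listed. The 65.9% counts each region once, whereas a region with several genes is reached from each of them. By pairs of gene and region, the 15982 regions with 1 gene stand among 35802 pairs, a smaller share than 65.9%. The 35% and 65.9% are thus not counted alike. At the highest region another listed start was nearer for 18 of the 51 genes, so heights at those genes cannot be given to the Rab gene alone. Regions called in both libraries made up 54% of Rab regions, beside 51% of all regions with a gene, and those called in wildtype only 42%, beside 46.6%. The 4 regions called in mutant only (beside 2.38% of all) lay at Rab1b, Rab3a, Rab26 and Rab40b. They had heights of 13 to 17 in mutant and 9 to 16 in wildtype, and all 4 overlapped a CpG island. Of the intervals assigned to Rab genes, 92.9% of the 56 in mutant (82.7 to 98.0, exact binomial 95% limits) overlapped a wildtype interval, beside 95.6% of all mutant intervals with a gene. In the other direction 56.7% of the 97 in wildtype overlapped a mutant interval (46.3 to 66.7), beside 52.4%. Where both libraries had a summit, the summits were within 100 bp of each other in 48 of 54 regions, with a median distance of 32 bp.

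A region within 1 kb of the gene start was found for 27 of 51 Rab genes (52.9%), beside 48.3% of all genes. All 27 overlapped a CpG island, as did 84.6% of all start regions, and 16 of the other 73 Rab regions did (21.9%, beside 5.9%). Start regions of Rab genes were within 1 kb of the Rab start, and those over all genes within 1 kb of any assigned start. Here and below, the other Rab regions can thus include starts of neighbouring genes, which the other regions over all genes do not. Values of other regions are unlike in this respect. The Rab gene nearest to the 1 kb limit on the inside was Rab27a, at -547 bp (23 in mutant and 59 in wildtype), and on the outside Rab11a, at 1017 bp (9 in mutant and 17 in wildtype). The heights of start regions were modest, with a median of 17 in mutant and 20 in wildtype, against 13 in mutant and 26 in wildtype for the other Rab regions. Their median log2 ratio was -0.58 (-0.92 to -0.49), against -1.15 (-1.26 to -0.94) for the other Rab regions; over all genes these medians were -0.81 and -1.15. At start regions 7 of 27 were 2-fold lower in mutant (25.9%, beside 39.6% of all start regions), and at other regions 44 of 73 (60.3%, beside 62.7%). A ratio above 0 was seen at 4 Rab start regions (14.8%, beside 8.35%), those of Rab1b, Rab8a, Rab28 and Rab40c. By average signal Rab1b alone of these 4 stayed above 0, at 0.49, with Rab8a at -0.23, Rab28 at -0.15 and Rab40c at -0.048. Among the 19 Rab start regions called in both libraries the median was -0.74, beside -0.78 over all genes.

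The ratio at Rab starts went with the height. Of the 18 start regions with a mean height under 25, 1 was 2-fold lower in mutant, beside 28.8% of all such start regions. Of the 9 start regions with a mean height of 25 or more, 6 were 2-fold lower, beside 60.6%. The 4 highest, at Rab2b, Rab12, Rab32 and Rab7l1, had log2 ratios of -1.40, -2.23, -0.83 and -1.34, and the median of all start regions with a mean height of 50 or more was -1.28. Away from the start the Rab medians were -0.74 for the 23 regions with a mean height under 15 and -1.20 for the 9 of 50 or more, beside -1.22 and -1.16 over all genes. As above, these Rab regions can include starts of neighbouring genes, which those over all genes do not.

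**Figure D3:**
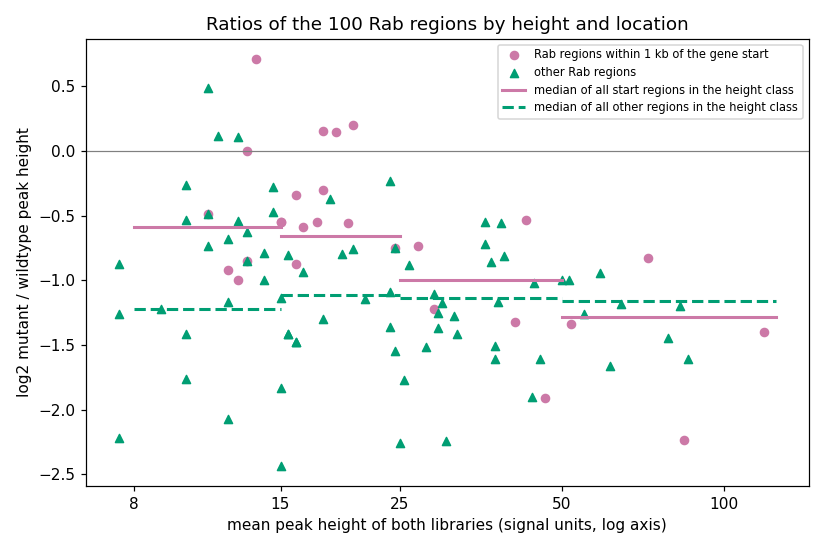
Log2 ratio of mutant to wildtype peak height against the mean height of both libraries (log axis) for the 100 Rab regions, with circles for the 27 regions within 1 kb of the start and triangles for the other 73; lines give the median of all start regions (solid) and all other regions (dashed) in each height class. Low start regions lie mostly above -1 and the high ones mostly below it, and the 4 start regions above 0 all have a mean height under 25.

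Within a gene the start region and the highest other region could be compared for 19 Rab genes. The start region had the higher ratio in 12 of them (63.2%), beside 63.6% of all genes with such a pair, and the median difference was 0.24 (-0.39 to 0.83), beside 0.26. The widest gap was at Rab40c, with a log2 ratio of 0.20 at the start and -1.90 elsewhere. At Rab8a the start had 20 in mutant and 18 in wildtype, and the region 16392 bp inside the gene had 9 in mutant and 21 in wildtype. Rab23 had 16 in mutant and 24 in wildtype at its start, against 22 in mutant and 69 in wildtype elsewhere. The order was turned round at 7 genes, and most of all at Rab33b and Rab12. The Rab12 start had a log2 ratio of -2.23, while the region 29538 bp past it, with 17 in mutant and 42 in wildtype, had -1.26.

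**Figure D4:**
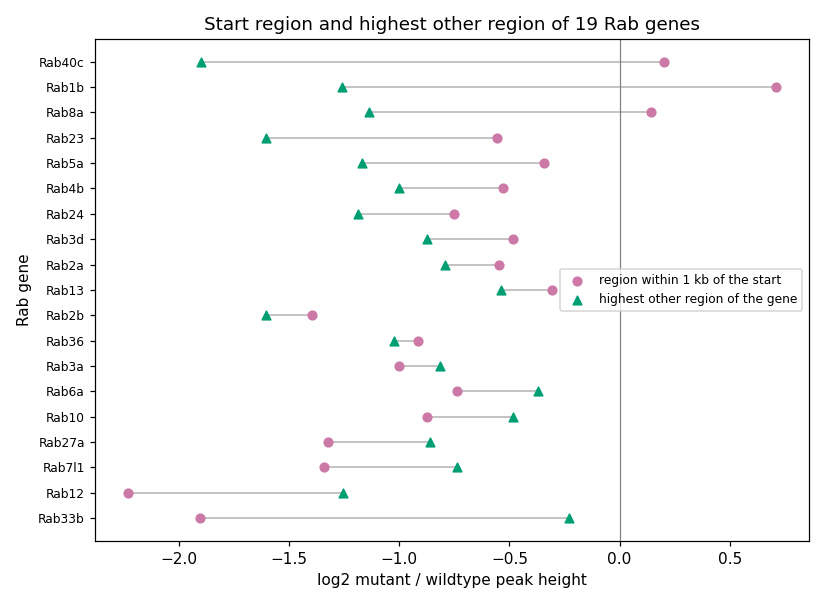
Log2 ratio of mutant to wildtype peak height at the region within 1 kb of the start (circles) and at the highest other region (triangles) of the 19 Rab genes that have both, ordered by the difference. The start region lies to the right in 12 genes, with Rab40c at the top, and to the left in 7, with Rab33b at the bottom.

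RefSeq promoter windows, 250 bases before to 50 after the start, matched 44 of the 51 Rab genes, with 53 windows in all. An exact CArG box stood in 1 of them (1.89%, beside 1.63% of all 32851 windows). That box, in Rab11a at chr9:64737901-64737910, was 937 bp from the nearest edge of the only Rab11a region, which had 9 in mutant and 17 in wildtype. With up to 1 mismatch, 9 windows held a CArG box (17%, beside 21.1%). The letters CCGGAA stood in 15 windows (28.3%, beside 14.9%), and so did GGAAGT (28.3%, beside 23.8%), a search added after the sequences had been read. Among the 23 Rab genes with a window inside a start region, CCGGAA was found in 7 (30.4%), beside 36.6% of the 5804 genes with such a window, so the excess over all windows was not seen there. The 7 had a median log2 ratio of -0.74 and the 16 without it -0.70. Among the same 23 genes, GGAAGT was found in 8 (34.8%, beside 31.4%) and an exact CArG box in 0 (beside 1.24%). With up to 1 mismatch, a CArG box was found in 1 of them (4.35%, beside 15.6%), a difference that was not tested.

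Regulators and partners of the Rabs were looked at as 4 lists. A mutant interval was assigned to 90.9% of GAPs, 83.9% of GEFs, 50% of genes that prenylate or carry Rabs and 91.1% of effectors. Over all genes this share was 73.8%. In wildtype the shares of the lists were 100%, 100%, 100% and 97.8%, beside 99% of all genes. Of the genes named below, the regions of Tbc1d22b, Ankrd27, Mon1a and Rab11fip3 are nearer to the start of another listed gene. GAPs, which switch Rabs off, were assigned an interval in 30 genes in mutant and 33 in wildtype of the 33 of 38 list members in the gene table; 22 of 33 were 2-fold lower in mutant (66.7%, beside 57.7% of all genes), with a median log2 ratio of -1.30. The highest was Tbc1d14, an autophagy-linked member of the GAP family, with 29 in mutant and 203 in wildtype, followed by Tbc1d9b with 50 in mutant and 112 in wildtype and Tbc1d22b with 26 in mutant and 135 in wildtype. GEFs had an interval in 26 genes in mutant and 31 in wildtype of 31, and 17 were 2-fold lower (54.8%), with a median of -1.03. Ankrd27, a GEF for the Rab5 relative Rab21, had 65 in mutant and 261 in wildtype. Mon1a, of the Rab7 GEF, had 48 in mutant and 96 in wildtype, and Dennd6b, of the DENN family of GEFs, 46 in mutant and 95 in wildtype.

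Genes that prenylate Rabs or carry them between membranes had an interval in 5 genes in mutant and in 10 in wildtype of 10; 7 were 2-fold lower (70%), with a median of -1.15. Rabggta, a subunit of the enzyme that attaches the lipid anchor, had 41 in mutant and 88 in wildtype at its start. Yipf6 and Yipf2, of a Golgi protein family that binds Rabs, had 30 in mutant and 134 in wildtype and 21 in mutant and 79 in wildtype. Effectors had an interval in 41 genes in mutant and 44 in wildtype of 45, and 22 were 2-fold lower (48.9%), with a median of -0.93. Zfyve20, an effector of Rab4 and Rab5, had 66 in mutant and 243 in wildtype. Rab11fip3, an effector of Rab11, had 42 in mutant and 140 in wildtype, and Ehbp1l1, an effector of Rab8, 38 in mutant and 89 in wildtype. None of the 4 lists had a member 2-fold higher in mutant, beside only 0.198% of all genes. The shares of 2-fold lower genes and of genes with a mutant interval lie on both sides of the background and carry no test.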

How the data were processed

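The authors deposited intervals per library, merged regions and genes with assigned intervals. Per the submitters' processing notes BWA was used, with the build mm10. How intervals were called and libraries scaled is not stated in the labels or headers. Per the file headers, each region has a peak and an average signal for each library. Gene assignments, distances to starts and CpG island counts are the authors'. Region starts are printed as listed, and their numbering base is not stated. No library total was used, so depth is unknown and 1 library per genotype gives no spread.

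Here a gene was represented by its assigned region with the highest mean of both heights. Ratios added a pseudocount of 1, and 2-fold is a log2 ratio of 1 or -1. No test across genes was run; counts stand beside those of all genes. Shares carry exact binomial and medians order-statistic 95% intervals, which cover counting over regions or genes only. Overlap needed 1 bp. The calculation of the calls was run on simulated heights without noise. That run checks the calculation only and not the calls from 1 library per genotype. Promoter sequences came from RefSeq (GRCm38.p6). Compartments and the 4 pathway lists follow textbook roles, and Rabgef1 is in 2 lists. Each Rab gene was put in 1 compartment, a coarse grouping that for Rab12 does not follow its role in receptor degradation. Members, lists, height classes and comparisons were chosen with earlier results of these data known.

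Named were, by rule, up to 4 Rab genes of the highest mean height per compartment, the 5 highest and 5 lowest ratios, genes with a region called in mutant only, Dstn and Srf as checks, and up to 3 genes per pathway list. Other Rab genes were added after their values were seen. Srf had 48 in mutant and 51 in wildtype at its highest region. The stroma genes of the markers had intervals for Col1a1 in both libraries, Lum in wildtype only and Kera in neither. Alternatives were the average signal, a pseudocount of 5, common scaling, other region choices, stricter heights and other distances. The software was Python 3.11.15, numpy 2.4.6, pandas 2.3.3 and scipy 1.17.1, with matplotlib 3.10.9 for figures.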

Additional observations from a re-analysis of the deposited data

How the results depend on the processing

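No paired analysis was possible because there was 1 library per genotype, which also left no library to omit. What the unknown depth does to low regions was not tested. The median log2 ratio of the Rab genes was -0.76 with the average signal and -0.080 with common scaling, which sets the overall median near 0 by construction (-0.79 and -0.050 over all genes). With the average signal 14 Rab genes were 2-fold lower (27.5%, beside 30.4% of all genes), and with scaling 2 were (3.92%, beside 5.83%). When all regions were counted, 51 of 100 were 2-fold lower (51%, beside 55.8% of all regions with a gene). The count of 2-fold higher Rab genes was 3 with scaling (5.88%, beside 4.2%). It was 0 in the other settings, beside at most 0.437%. Restricting intervals to heights of at least 24, their median, left 18 Rab genes bound in mutant (35.3%, beside 35.6% of all genes) and 37 in wildtype (72.5%, beside 77.1%), and restricting them to those within 1 kb of a start left 20 in mutant and 26 in wildtype. Start regions at or above the median mean height were found for 11 Rab genes. For the counts of 20, 26 and 11 no share over all genes is given, so none is compared with the whole table. Overlap at or above the median interval height was 100% of 20 mutant intervals and 36.4% of 55 wildtype intervals, beside 98.2% and 31.3% over all intervals with a gene. The GAP median was -0.84 with the average signal and -0.94 with the region nearest the start, and the GEF median -0.75 with the average signal. Before the start only, 15.1% of Rab windows held CCGGAA, beside 12% of all windows. Scaling, which shifts all genes alike, took 11 of 32 named Rab genes from below to above 0. Of these, Rab17 (0.049), Rab36 (0.021) and Rab4b (0.048) had been 2-fold lower. The average signal turned Rab28 to -0.15 and Rab8a to -0.23, both above 0 by peak height, and Rab13 to 0.28, below 0 by peak height. The region nearest the start turned Rab1b to 0.71, Rab31 to 0.12 and Rab40c to 0.20. The cause of these moves was not tested. Alternatives for start regions, for genes whose region has no nearer listed start, for the region table and for the motif window were chosen after seeing the data; without regions nearer to another listed start the median was -1 over 43 Rab genes.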

Other observations

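The Rab-like genes, relatives of the Rabs that the naming pattern leaves out, carried SRF regions at their starts, as did 48.3% of all genes. They were chosen after the gene names had been seen, and 4 such genes are not read as a family trait. Rabl2, whose product acts in ciliary transport, had 13 in mutant and 29 in wildtype at a region centred at -6 bp. Rabl3 had 16 in mutant and 25 in wildtype, centred at -24 bp, and Rabl5, a subunit of the intraflagellar transport machinery, had 22 in mutant and 30 in wildtype, centred at -36 bp. Rabl6 had 4 regions, with 9 in mutant and 14 in wildtype at its start and 27 in mutant and 55 in wildtype at a region 26883 bp past the start that is nearer to another gene. The log2 ratios at these 4 starts were -1.10, -0.61, -0.43 and -0.58.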
